A study of Mus musculus with 8 samples.

Results

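To describe how the genes of Polycomb repressive complex 2 (PRC2) were expressed in mouse lung tumors with and without a guide RNA against *Setd2*, 10 genes were followed through a table of mRNA read counts, out of 48709 genes listed there. The members are *Ezh1*, *Ezh2*, *Eed*, *Suz12*, *Rbbp4*, *Jarid2*, *Mtf2*, *Phf1*, *Phf19* and *Cbx7*, each found as 1 row whose Ensembl identifier carries that symbol in GENCODE release M21. All 10 passed the filter on low counts that left 14929 genes for testing.

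The libraries came from 8 tumors, 4 of the group *K-Ctrl* and 4 of *K-Setd2KO*, taken from lungs of mice of the *K* model on a mixed B6J/129S4vJae background. In both groups the tumors were started with LentiCRISPRv2Cre, a lentivirus given through the airway that carries Cas9, Cre recombinase and 1 guide RNA, so that Cre and Cas9 reached the tumors of both groups alike. The guide targeted *GFP*, a jellyfish gene, in *K-Ctrl* and *Setd2*, whose product trimethylates lysine 36 of histone H3, in *K-Setd2KO*. The study describes the *K-Setd2KO* tumors as low-grade adenomas with *K-Ctrl* tumors matched for stage. It used mice of both sexes with tumors started by 20 weeks of age, and the sex, exact age and mouse of each of these tumors are not given in the sources used here. The RNA came from whole tumors with no sort for tumor cells. Nothing in the labels ties a tumor to a mouse, so the p-values measure the spread between these 8 tumors, which may share animals.

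PRC2 methylates lysine 27 of histone H3, a mark of silenced developmental genes. Its core joins a catalytic subunit, EZH1 or EZH2, with EED, which reads the mark, SUZ12, which holds the complex together, and the histone-binding RBBP4 or RBBP7. Accessory proteins direct the core to chromatin. The Polycomb-like proteins PHF1, MTF2 and PHF19 mark one form of the complex (PRC2.1), and JARID2 with AEBP2 marks the other (PRC2.2). CBX7 is no PRC2 subunit. It belongs to canonical PRC1 and binds the mark that PRC2 lays down. In many tissues *Ezh2* is most abundant in dividing cells and *Ezh1* in resting ones.

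Among the 10 members, *Phf1* was the 1 gene called different (adjusted p under 0.05, edgeR quasi-likelihood test with Benjamini-Hochberg adjustment over the 14929 genes) and it was higher in *K-Setd2KO*. Over all genes tested, 12.7% were called, 4.97% as higher and 7.74% as lower, so that 1 of 10 members was near the background. For 6 of the 10 members the whole 95% interval lay within 1.5-fold in either direction, for *Ezh2* and *Phf1* it lay within 2-fold, and for *Phf19* and *Cbx7* it reached beyond. The median log2 fold change of the members was 0.05, against 0.03 for all genes tested. In 3 members (*Eed*, *Suz12* and *Phf1*) the values of the groups did not overlap, and the same held for 20.3% of all genes tested. At an unadjusted p under 0.05 there were 3 members (*Phf1*, *Cbx7* and *Eed*), beside 29.9% of all genes. The call for *Phf1* stood close to the threshold and was lost under most other ways of processing, as given below with its values.

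**Figure D1:**
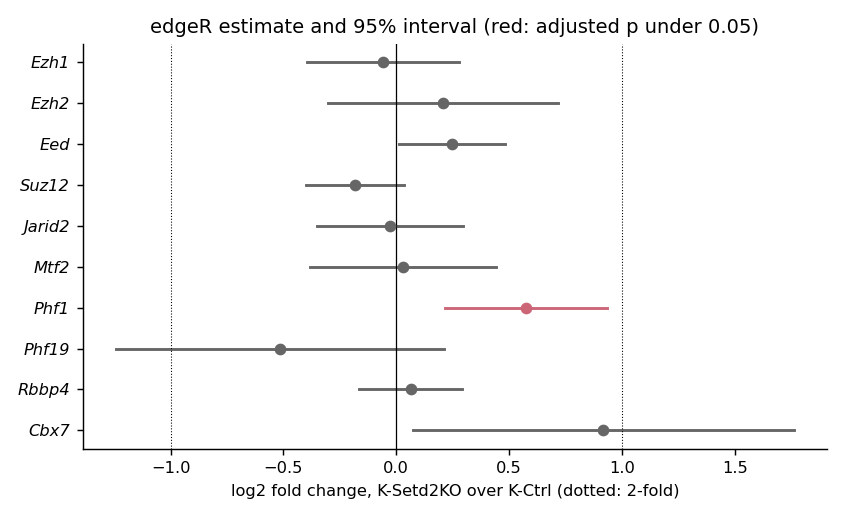
Log2 fold change of each PRC2 member, *K-Setd2KO* over *K-Ctrl*, from the edgeR fit to 4 and 4 tumors. Points are estimates, lines are 95% intervals, the dotted lines mark 2-fold. Only the interval of *Phf1*, in red, belongs to a gene with an adjusted p under 0.05, and those of *Phf19* and *Cbx7* are the widest.

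Among the series-wide checks, the total counts ranged from 5806599 (*K-Setd2KO* replicate 4) to 21290402 (*K-Ctrl* replicate 3). The *Setd2* mRNA did not show the guide's action, with 140 ± 8.81 CPM for *K-Ctrl* against 136 ± 15.5 CPM for *K-Setd2KO* (CPM is the count scaled to a common library size by TMM, given as mean ± SD, n = 4), a log2 fold change of -0.05 (SE 0.12, edgeR adjusted p = 0.824). A guide makes small insertions and deletions, which need not lower the mRNA, so this level does not check the labels. The epithelial and alveolar type 2 markers were present in every tumor, and in *K-Setd2KO* 3 of 10 epithelial genes were called higher, while 1 of 10 alveolar type 2 genes was called higher and 1 lower. Markers of other cells had lower summed levels in *K-Setd2KO*, with ranges that were apart for leukocytes and fibroblasts. The summed pan-leukocyte markers were 1096 to 1939 CPM for *K-Ctrl* against 593 to 797 CPM for *K-Setd2KO* (8 of 10 genes called lower). The summed endothelial markers were 609 to 2214 against 243 to 611 CPM (3 of 10 called lower), and the summed fibroblast markers 968 to 1526 against 262 to 914 CPM (2 of 10 called lower). None of these 30 markers was at 0 in all tumors. In whole tumors, fewer cells of a type and less RNA per cell cannot be told apart. The part of these markers in the results on PRC2 genes was not tested.

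Levels are first compared between members per kilobase of summed exon length (CPM per kb). In *K-Ctrl*, *Suz12* was the most abundant member, at 22.3 ± 1.19 CPM per kb. It was followed by *Eed* at 14.2, *Phf1* at 13.5 and *Rbbp4* at 12.8, whose ranges overlapped from neighbor to neighbor. *Ezh1* came next at 7.47 ± 0.67 CPM per kb, separate in its range from *Rbbp4* above and *Mtf2* below. *Mtf2* (5.98), *Jarid2* (5.26), *Cbx7* (4.12) and *Ezh2* (3.81 CPM per kb) again overlapped from neighbor to neighbor. *Phf19* was by far the lowest, at 0.657 ± 0.0462 CPM per kb. In *K-Setd2KO* the means of *Phf1*, *Suz12* and *Eed* were 20.1 ± 4.26, 19.6 ± 0.842 and 16.8 ± 1.10 CPM per kb. The range of *Phf1* there, 16.1 to 25.7 CPM per kb, took in that of *Suz12*, 19.0 to 20.9 CPM per kb, so these 2 genes were not ordered.

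**Figure D2:**
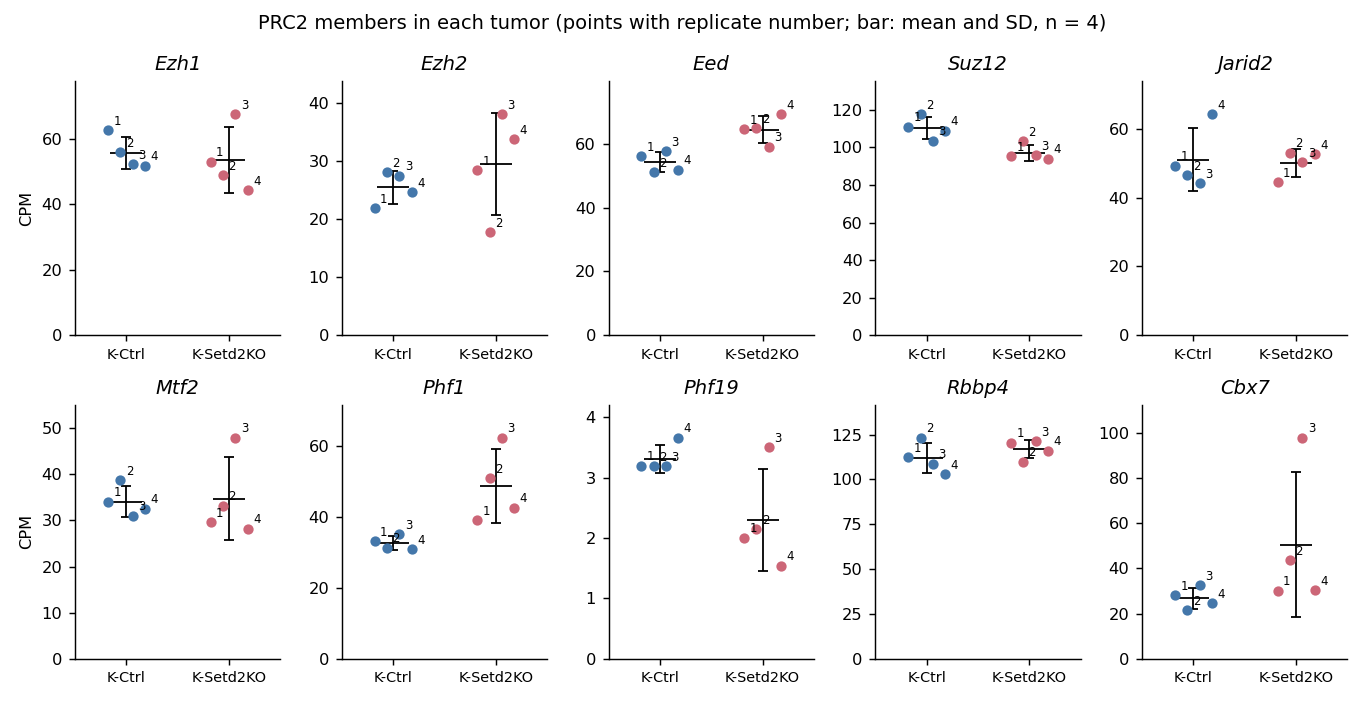
CPM of the 10 PRC2 members in each tumor (vertical axes start at 0), with the replicate number beside each point and bars for the mean and SD of 4 tumors. The groups are apart for *Eed*, *Suz12* and *Phf1*, and *K-Setd2KO* replicate 3 is the highest tumor for *Phf1*, *Cbx7*, *Mtf2*, *Ezh1* and *Ezh2*.

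Neither catalytic subunit passed the threshold. *Ezh1* (ENSMUSG00000006920.14, chromosome 11, 101191115 to 101226463, minus strand, GRCm38) stood at 62.5, 55.8, 52.3 and 51.8 CPM in *K-Ctrl* replicates 1 to 4. In *K-Setd2KO* it stood at 52.9, 48.9, 67.5 and 44.2 CPM. The highest and the lowest *Ezh1* value both belonged to *K-Setd2KO*, and the groups overlapped. The log2 fold change of *Ezh1* was -0.06 (SE 0.15, 95% interval -0.39 to 0.28, edgeR adjusted p = 0.827).

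*Ezh2* (ENSMUSG00000029687.16, chromosome 6, 47530139 to 47595341, minus strand), the more active methyltransferase, stood at 21.9, 28.0, 27.4 and 24.5 CPM in *K-Ctrl* replicates 1 to 4. In *K-Setd2KO* it stood at 28.4, 17.7, 38.0 and 33.7 CPM. Thus 3 of the *K-Setd2KO* tumors were above all *K-Ctrl* tumors, while replicate 2 was below them all. The log2 fold change of *Ezh2* was 0.21 (SE 0.23, 95% interval -0.30 to 0.72, edgeR adjusted p = 0.578). The ratio of *Ezh2* to *Ezh1*, each per length, was 0.515 ± 0.0871 for *K-Ctrl* against 0.620 ± 0.183 for *K-Setd2KO* (n = 4 each), with overlapping ranges of 0.389 to 0.585 and 0.403 to 0.851. In all 8 tumors *Ezh1* mRNA thus exceeded *Ezh2* mRNA per length.

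The spread of *Ezh2* moved with that of its chromosome. Over the 839 tested genes of chromosome 6, the median deviation of log2 CPM from each gene's mean was -0.17, -0.10, -0.12 and -0.10 in *K-Ctrl* replicates 1 to 4. In *K-Setd2KO* it was 0.19, -0.16, 0.20 and 0.24. Chromosome 6 was therefore high in the same 3 *K-Setd2KO* tumors that were high in *Ezh2*, and low in replicate 2. These chromosome 6 values all lay outside -0.09 to 0.12, the span of the single-tumor medians of the other 18 autosomes. The difference of the group means was 0.24 for chromosome 6. When each tumor's chromosome medians were entered as an offset, the log2 fold change of *Ezh2* turned to -0.06 (edgeR adjusted p = 0.841). The cause of the shift of chromosome 6 was not tested. *Ezh1* on chromosome 11 had no such company, since the chromosome 11 medians lay between -0.04 and 0.06.

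**Figure D3:**
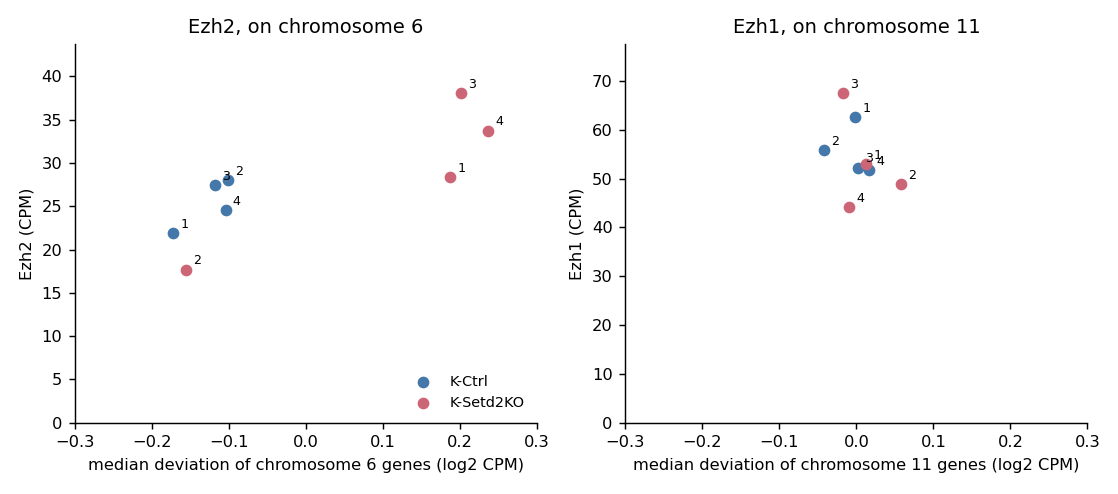
CPM of *Ezh2* and *Ezh1* in each tumor against the median deviation (log2 CPM) of all tested genes on their own chromosome, 6 or 11, with replicate numbers. *Ezh2* is high in *K-Setd2KO* replicates 1, 3 and 4, where chromosome 6 is at 0.19 to 0.24, and low in replicate 2, where it is at -0.16, while chromosome 11 stays within -0.04 to 0.06.

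By the likeness of their pattern over the 8 tumors (Pearson r of log2 CPM among the 14928 other tested genes, a description), *Ezh1* was closest to *Atg14* at r = 0.99, *Schip1* at 0.96, and *Gemin2*, *Smim26* and *Ttc36* at 0.95 each. *Ezh2* was closest to *Fmn1* at r = 0.97, followed by *Trpv4*, *Gnal*, *Zfp703* and *Tia1*, each at 0.95. Of those 5, only *Tia1* lies on chromosome 6. The best of so many correlations over 8 tumors are high in any data of this size.

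The scaffold subunits *Eed* and *Suz12* had small estimates of opposite sign, and neither passed the threshold. *Eed* (ENSMUSG00000030619.9, chromosome 7, 89954654 to 89980983, minus strand), whose protein binds the methylated lysine and stimulates the enzyme, stood at 56.2, 51.2, 57.8 and 51.9 CPM in *K-Ctrl*. In *K-Setd2KO* it stood at 64.6, 64.9, 59.1 and 69.3 CPM. Every *K-Setd2KO* tumor was above every *K-Ctrl* tumor. The log2 fold change was 0.25 (SE 0.10, 95% interval 0.01 to 0.48, edgeR adjusted p = 0.148).

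*Suz12* (ENSMUSG00000017548.15, chromosome 11, 79993106 to 80034123, plus strand), which the complex needs for its stability, stood at 111.0, 117.7, 103.5 and 108.9 CPM in *K-Ctrl*. The *K-Setd2KO* tumors stood at 95.4, 103.3, 95.9 and 94.0 CPM. Here every *K-Setd2KO* tumor was below every *K-Ctrl* tumor, with replicate 2 of *K-Setd2KO* next to the lowest *K-Ctrl* value. The log2 fold change was -0.18 (SE 0.10, 95% interval -0.40 to 0.03, edgeR adjusted p = 0.234). As a description chosen after both fold changes were seen, the *Eed* to *Suz12* ratio per length was 0.562 to 0.720 in *K-Ctrl* against 0.796 to 0.953 in *K-Setd2KO*.

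*Rbbp4* (ENSMUSG00000057236.10, chromosome 4, 129307100 to 129335370, minus strand), a histone chaperone shared with several other chromatin complexes, stood at 112.5, 123.2, 108.9 and 103.0 CPM in *K-Ctrl*. Among *K-Setd2KO* replicates the values were 120.5, 109.9, 121.3 and 116.0 CPM, wholly inside the range of the *K-Ctrl* tumors. The log2 fold change was 0.06 (SE 0.10, 95% interval -0.16 to 0.29, edgeR adjusted p = 0.710). Its interval was, with those of *Suz12* and *Eed*, among the narrowest of the members, at 678 to 2358 counts a tumor. *Rbbp4* overlaps *Sync* on the opposite strand, which stood at 0.153 to 2.74 CPM over the 8 tumors. Whether the counting used the read strand is not given in the sources used here, so reads of the overlap may be shared.

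Of the accessory subunits, *Phf1* was higher in *K-Setd2KO*. *Phf1* (ENSMUSG00000024193.7, chromosome 17, 26933127 to 26937890, plus strand) encodes a Polycomb-like protein whose Tudor domain binds trimethylated lysine 36 of histone H3, the mark that SETD2 makes. It stood at 33.2, 31.3, 35.2 and 31.0 CPM in *K-Ctrl*. Its *K-Setd2KO* values were 39.1, 50.9, 62.4 and 42.6 CPM. The *K-Ctrl* tumors lay close together, every *K-Setd2KO* tumor was above them, and replicate 3 was the highest. The means were 32.7 ± 1.96 and 48.8 ± 10.3 CPM (SD, n = 4). The log2 fold change was 0.58 (SE 0.16, 95% interval 0.22 to 0.94, edgeR adjusted p = 0.0454), which is 1.49-fold with an interval of 1.16 to 1.91. The same 4 tumors had the lower summed leukocyte (593 to 797 CPM) and fibroblast markers (262 to 914 CPM), whose part in the level of *Phf1* was not tested.

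The call for *Phf1* was lost in most settings. With 1 tumor left out, its log2 fold change ranged from 0.44 to 0.67 and its adjusted p from 0.0368 to 0.102, and the call remained only without *K-Setd2KO* replicate 1. Without *K-Setd2KO* replicate 3 the log2 fold change was 0.44 (edgeR adjusted p = 0.0893). By DESeq2 it was 0.57 (DESeq2 adjusted p = 0.0116), and with the sex of each tumor as a term 0.71 (edgeR adjusted p = 0.0361). By *Xist* and Y-linked counts, *K-Ctrl* replicate 2 and *K-Setd2KO* replicates 1, 2 and 4 were female and the others male. Within males (3 against 1) the difference of mean log2 CPM of *Phf1* was 0.91, and within females (1 against 3) it was 0.49. With the replicate number as a block the adjusted p of *Phf1* was 0.0774. Of the alternatives run, 13 lost the call and 5 kept it, and the direction was positive in all of them.

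The 250 bases before the RefSeq start of *Phf1* (GRCm38.p6, chr17:26932877-26933126, plus strand) are shown because *Phf1* is the member that was called. The capitals mark the GC box letters GGGCGG, searched on both strands, of which it holds 4. Such a box was present in 35.7% of the 32851 RefSeq promoters of 300 bases (250 before to 50 after the start), and in 8 of the 12 promoters of the members.
Phf1: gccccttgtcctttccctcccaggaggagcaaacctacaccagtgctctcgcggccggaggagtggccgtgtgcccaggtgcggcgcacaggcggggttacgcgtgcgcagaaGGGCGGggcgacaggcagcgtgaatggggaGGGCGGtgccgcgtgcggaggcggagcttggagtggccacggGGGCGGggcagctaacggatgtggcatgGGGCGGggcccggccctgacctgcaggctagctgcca

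The other Polycomb-like genes did not pass the threshold. *Mtf2* (ENSMUSG00000029267.17, chromosome 5, 108065674 to 108109004, plus strand), whose protein recruits PRC2 to unmethylated CpG islands, stood at 34.1, 38.7, 31.0 and 32.6 CPM in *K-Ctrl*. The *K-Setd2KO* replicates measured 29.6, 33.2, 47.9 and 28.2 CPM. Only replicate 3 of *K-Setd2KO* was above the *K-Ctrl* range, and 2 tumors were below it. edgeR estimated a log2 fold change of 0.03 (SE 0.18, 95% interval -0.38 to 0.44, edgeR adjusted p = 0.934), and -0.16 without replicate 3. *Mtf2* overlaps *Tmed5* on the opposite strand, and *Tmed5* had a log2 fold change of -0.69 (edgeR adjusted p = 0.0537). As for *Rbbp4*, reads of the overlap may be shared. The genes that overlap *Ezh2*, *Eed*, *Suz12*, *Jarid2*, *Phf1* and *Phf19* have Gm, Rik or Mir symbols, and their counts were not examined here.

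*Phf19* (ENSMUSG00000026873.9, chromosome 2, 34893757 to 34914026, minus strand) stood at 3.20, 3.19, 3.19 and 3.66 CPM in *K-Ctrl*. The *K-Setd2KO* tumors stood at 2.00, 2.14, 3.51 and 1.54 CPM. Thus 3 *K-Setd2KO* tumors were below the *K-Ctrl* range and replicate 3 was within it. Its log2 fold change was -0.51 (SE 0.32, 95% interval -1.24 to 0.21, edgeR adjusted p = 0.318), with 9 to 69 counts a tumor behind it, and the interval includes a 2-fold lower level.

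Within the Polycomb-like genes, the share of *Phf1* was larger in each *K-Setd2KO* tumor. As a description chosen after the fold changes were seen, the *Phf1* to *Mtf2* ratio per length was 1.90 to 2.66 in *K-Ctrl* against 3.06 to 3.60 in *K-Setd2KO*, and the *Phf19* to *Phf1* ratio was 0.0436 to 0.0570 and 0.0174 to 0.0271. Neither pair of ranges overlapped.

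*Jarid2* (ENSMUSG00000038518.15, chromosome 13, 44729474 to 44921643, plus strand), the DNA-binding subunit of PRC2.2, stood at 49.2, 46.6, 44.2 and 64.3 CPM in *K-Ctrl*. Among *K-Setd2KO* replicates the values were 44.4, 53.1, 50.3 and 52.5 CPM. All *K-Setd2KO* tumors were inside the range of *K-Ctrl*, whose replicate 4 was the highest tumor. edgeR estimated a log2 fold change of -0.03 (SE 0.14, 95% interval -0.35 to 0.29, edgeR adjusted p = 0.917).

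*Cbx7* (ENSMUSG00000053411.16, chromosome 15, 79915807 to 79971119, minus strand), the reader of the PRC2 mark in canonical PRC1, stood at 28.1, 21.6, 32.7 and 24.5 CPM in *K-Ctrl*. Its *K-Setd2KO* values were 30.1, 43.7, 97.8 and 30.5 CPM. Replicates 2 and 3 of *K-Setd2KO* were above the *K-Ctrl* range, and replicates 1 and 4 were within it. Its log2 fold change was 0.92 (SE 0.37, 95% interval 0.07 to 1.76, edgeR adjusted p = 0.138), and it fell to 0.38 without replicate 3. With the sex of each tumor as a term, it was 1.24 with an edgeR adjusted p of 0.0268. The within-sex differences of mean log2 CPM of *Cbx7* were 1.79 in males, which rests on *K-Setd2KO* replicate 3 alone, and 0.66 in females. *Cbx7* overlaps *Apobec3* on the opposite strand, which stood at 25.5, 31.2, 71.9 and 32.7 CPM in *K-Ctrl* and at 31.5, 29.4, 76.0 and 94.0 CPM in *K-Setd2KO*. *K-Setd2KO* replicate 3 was high in both genes, while *K-Ctrl* replicate 3 and *K-Setd2KO* replicate 4 were high in *Apobec3* alone.

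The members were next set against proliferation, since *Ezh2* and its partners are known targets of the E2F factors that drive the cell cycle. A score per tumor was taken as the mean centered log2 CPM of 44 tested genes of replication and mitosis, none of them a member. Of these genes 8 were called lower in *K-Setd2KO* by edgeR, among them *Mcm3*, *Pcna* and *Mki67* (named after their values were seen), beside 7.74% of all genes tested. DESeq2 called 16 lower and limma voom 13, and all 3 tools called 0 higher. The share of 7.74% is that of edgeR, and none is given here for the other tools. The summed leukocyte (593 to 797 CPM) and fibroblast markers (262 to 914 CPM) were below *K-Ctrl* in the same 4 tumors, and their part in the score was not tested. The median log2 fold change over the list was -0.71. The study itself describes high rates of cell proliferation in SETD2-deficient tumors. Its measure, in the drug experiments, was staining of tumor sections for phosphorylated histone H3. That measure and mRNA of whole tumors are unlike, and the reason for the difference was not tested. The score was 0.32, 0.40, 0.26 and 0.46 in *K-Ctrl* and -0.10, -0.89, -0.61 and 0.16 in *K-Setd2KO*. All *K-Ctrl* tumors thus had a higher score than all *K-Setd2KO* tumors, and replicates 2 and 3 of *K-Setd2KO* had the lowest. With replication genes alone the groups were also apart. With mitosis genes alone they overlapped, since *K-Setd2KO* replicate 4, at 0.35, was above *K-Ctrl* replicate 3, at 0.29.

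No relation between *Ezh2* and the score was detected. Its Pearson r with the score was 0.12 (exact permutation p = 0.770, n = 8) and its Spearman rho -0.19 (exact permutation p = 0.665). *K-Setd2KO* replicate 3, with the highest *Ezh2* of all tumors, had the next to lowest score. Without *K-Setd2KO* replicate 2 the r of *Ezh2* turned to -0.76 (exact permutation p = 0.0413, n = 7). For *Phf19* r was 0.26 and for *Suz12* it was 0.49, with exact permutation p-values of 0.540 and 0.219. After each genotype's mean was subtracted, r was 0.51 for *Ezh2*, and it turned to -0.59 for *Phf19* and -0.44 for *Suz12*.

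Over all 8 tumors *Phf1* had the r farthest from 0 among the members, and it was inverse. It was -0.90 (exact permutation p = 0.00513, two-sided, n = 8), with p = 0.0513 when adjusted by Benjamini-Hochberg over the 10 relations computed. Its rho was -0.95 (exact permutation p = 0.00114, adjusted p = 0.0114). Without the 2 tumors farthest from the median score, *K-Setd2KO* replicates 2 and 3, r was -0.80 (exact permutation p = 0.050, n = 6). With these 6 tumors *Suz12* at 0.81 (exact permutation p = 0.0417) and *Eed* at -0.81 (exact permutation p = 0.0458) lay slightly farther from 0 than *Phf1*. Since the score also separates the genotypes, the relation was computed again after each genotype's mean was subtracted, where r was -0.73, given as a description.

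*Cbx7* had an r of -0.78 with the score (exact permutation p = 0.0226, adjusted p = 0.113, n = 8) and a rho of -0.86 (exact permutation p = 0.0107, adjusted p = 0.0536). With 1 tumor left out the r of *Cbx7* ranged from -0.92 to -0.75, and its adjusted permutation p from 0.0417 to 0.183. Without the same 2 tumors r was -0.63 (exact permutation p = 0.168, n = 6), and after the genotype means were subtracted it was also -0.63. *Eed* had an r of -0.54 (exact permutation p = 0.171), a rho of -0.81 (exact permutation p = 0.0218, adjusted p = 0.0726) and, after the genotype means were subtracted, an r of 0.33. The r of *Ezh1*, *Jarid2*, *Mtf2* and *Rbbp4* lay between -0.33 and 0.03. Over all 14929 genes the quartiles of r were -0.46 and 0.46, and the r of *Suz12* and *Eed* lay just outside them.

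**Figure D4:**
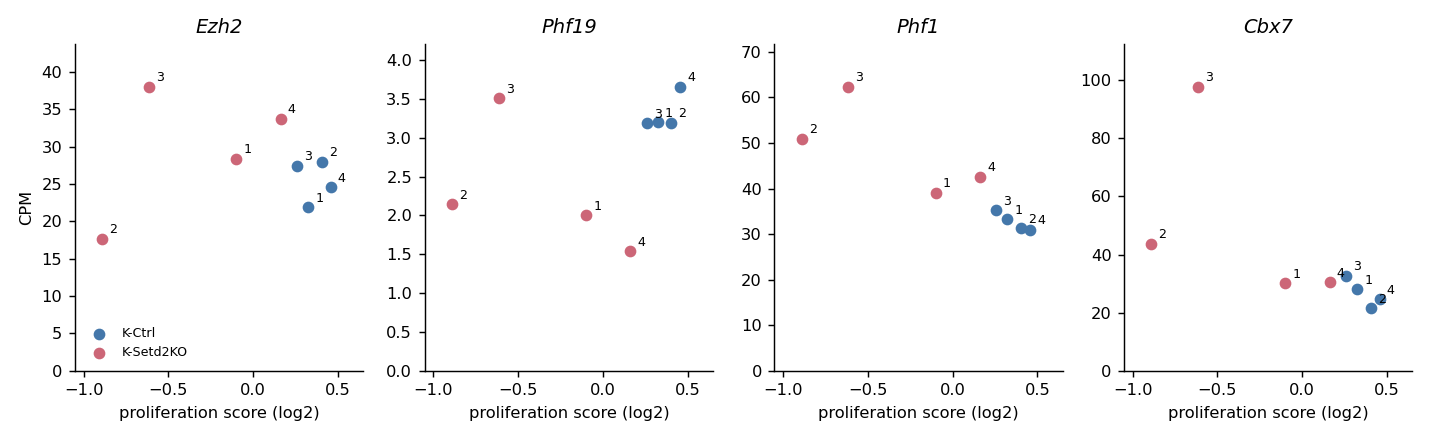
CPM of *Ezh2*, *Phf19*, *Phf1* and *Cbx7* (vertical axes start at 0) against the proliferation score (mean centered log2 CPM of 44 genes) in each tumor, with replicate numbers. *Phf1* is highest, at 62.4 and 50.9 CPM, in the tumors with the lowest scores and lowest, at 31.0 CPM, at the highest score, while *Ezh2* is highest at a score of -0.61 and lowest at -0.89.

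Promoter sequences were searched for E2F letters because many replication genes are classical E2F targets. The forms searched, on either strand, were the letters TTTGGCG, the same with CCC in the middle (TTTCCCG) and the same with CGC there (TTTCGCG). At least 1 of them was present in 5.58% of the 32851 RefSeq promoters, in 24.4% of the 41 promoters of proliferation genes and in 3 of the 12 promoters of members, those of *Ezh2*, *Phf19* and *Suz12*. The CHR letters TTTGAA, known from mitosis genes, were present in 17.9% of all promoters, in 46.3% of those of proliferation genes and in 4 of the 12 of members. These matches are a description and not evidence of binding. Each stretch of 30 bases is given on the gene's strand (GRCm38.p6), with the E2F letters in capitals. The capitals begin at base 4 of the transcript for *Ezh2* (chr6:47595009-47595038, a stretch that opens before the RefSeq start), 207 and 199 bases before the start for *Phf19* (chr2:34914165-34914194 and chr2:34914157-34914186, which overlap) and 219 bases before the start for *Suz12* (chr11:79992876-79992905).
Ezh2: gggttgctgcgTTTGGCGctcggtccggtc
Phf19, first match: tcaataattcgCGGGAAAacgcgaaaaaga
Phf19, second match: tcgcgggaaaaCGCGAAAaagatggcgccc
Suz12: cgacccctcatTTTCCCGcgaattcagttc

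The 3 members with such letters were not all alike in pattern, with r of -0.48 between *Ezh2* and *Suz12*, -0.01 between *Ezh2* and *Phf19* and 0.60 between *Suz12* and *Phf19* over the 8 tumors. Among all 45 pairs of members, *Phf1* and *Cbx7* were the most alike at r = 0.93, both highest in *K-Setd2KO* replicate 3, followed by *Ezh1* and *Mtf2* at 0.81. The most opposed were *Eed* and *Phf19* at -0.89 and *Eed* and *Suz12* at -0.84. These values are given without a test.

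The rest of the Polycomb pathway was described by 121 genes in 7 lists, of which 64 were tested and 6 called, 3 higher and 3 lower in *K-Setd2KO*. This is 9.38% of those tested, beside 12.7% of all genes. Among the further PRC2 subunits 0 of 5 were called by edgeR (1 at an unadjusted p under 0.05), and 0 by DESeq2 or limma voom. *Rbbp7*, the paralog of *Rbbp4*, had a log2 fold change of 0.28 (edgeR adjusted p = 0.143) and *Lcor*, whose locus makes the PALI proteins of PRC2.1, -0.38 (edgeR adjusted p = 0.233).

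Of canonical PRC1, which compacts chromatin at the PRC2 mark, 2 of 11 tested genes were called, both higher, beside 4.97% called higher and 12.7% called either way over all genes. The lists were not compared with each other by a test. *Pcgf2* (MEL18, a core subunit) stood at 34.7 to 54.9 CPM in *K-Ctrl* against 64.5 to 128 CPM in *K-Setd2KO*, a log2 fold change of 1.09 (SE 0.26, edgeR adjusted p = 0.0287). *Phc1*, which polymerizes PRC1, stood at 16.9 to 26.1 and 29.9 to 37.9 CPM, with 0.65 (SE 0.17, edgeR adjusted p = 0.0400). The ranges of the groups were apart in both genes. Of the alternatives run, the call was lost in 6 for *Pcgf2* and in 10 for *Phc1*, with the direction kept. The catalytic subunit *Rnf2* had a log2 fold change of 0.03 and *Bmi1*, the paralog of *Pcgf2*, one of 0.05 (named after their values were seen), neither past the threshold.

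Variant PRC1, which ubiquitinates histone H2A, had 1 of 14 tested genes called, a share near the background. *Pcgf1* stood at 4.19 to 5.31 CPM in *K-Ctrl* against 7.09 to 13.4 CPM in *K-Setd2KO*, a log2 fold change of 0.97 (SE 0.25, edgeR adjusted p = 0.0338), and the call was lost in 9 of the alternatives. *Pcgf1* and *Phc1* lie on chromosome 6 like *Ezh2*. With the chromosome medians as an offset their log2 fold changes were 0.73 (edgeR adjusted p = 0.0817) and 0.41 (edgeR adjusted p = 0.178).

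The enzymes that remove Polycomb marks showed no call in the main edgeR fit. Of the H3K27 demethylases 0 of 2 were called by edgeR (0 at an unadjusted p under 0.05), and 0 by DESeq2 or limma voom, with log2 fold changes of 0.29 for *Kdm6a* and 0.05 for *Kdm6b*. *Kdm6a* is X-linked and was higher in the female tumors, and with sex as a term its log2 fold change was -0.01. Of the H2A deubiquitinase list 0 of 7 were called by edgeR, DESeq2 or limma voom. By edgeR 2 had an unadjusted p under 0.05, *Asxl1* with a log2 fold change of 0.33 (adjusted p = 0.127) and *Mbd6* with 0.36 (adjusted p = 0.155). With 1 tumor left out the edgeR adjusted p ranged from 0.0413 to 0.236 for *Asxl1* and from 0.0815 to 0.317 for *Mbd6*.

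The share of edgeR calls among classical targets of Polycomb silencing was near the background. Over all genes tested, 7.74% were called lower, 12.7% either way, and 29.9% had an unadjusted p under 0.05. These shares are those of edgeR. None is given here for DESeq2 or limma voom, so the counts of those tools have no background beside them. Of 39 *Hox* genes 5 were expressed well enough to be tested, 0 were called by edgeR (3 at an unadjusted p under 0.05) and 0 by limma voom, 3 were called lower by DESeq2, and all 5 had negative log2 fold changes, with a median of -1.15. *Hoxb5* stood at 1.51 to 8.19 CPM in *K-Ctrl* against 0.0923 to 1.37 CPM in *K-Setd2KO* (log2 fold change -2.29, edgeR adjusted p = 0.0614), and *Hoxb4* at 4.03 to 8.68 and 0.923 to 4.01 CPM (-1.38, edgeR adjusted p = 0.0820, and 0.0439 with the replicate block). With 1 tumor left out the edgeR adjusted p ranged from 0.0593 to 0.166 for *Hoxb5* and from 0.0375 to 0.205 for *Hoxb4*. Of 40 other classical targets 20 were tested and 3 called, all lower, while limma voom called 0 and DESeq2 called 7, of which 2 were higher. By edgeR 9 of these 20 had an unadjusted p under 0.05. Their log2 fold changes were negative in 13 and positive in 7, with a median of -0.57. Those called by edgeR were the mesenchymal transcription factor gene *Foxf1* at -2.44 (edgeR adjusted p = 0.0276), *Tbx3* at -2.26 (edgeR adjusted p = 0.0367) and *Tbx5* at -1.09 (edgeR adjusted p = 0.0431). With sex as a term none of these was called, with edgeR adjusted p-values of 0.150 for *Foxf1*, 0.210 for *Tbx3* and 0.0869 for *Tbx5*. Without *K-Ctrl* replicate 1 *Tbx3* was at -1.53, and all 3 calls were lost (edgeR adjusted p = 0.0649 for *Foxf1*, 0.0661 for *Tbx3* and 0.112 for *Tbx5*). In *K-Ctrl* replicate 1, the tumor with the highest summed endothelial markers (2214 CPM), *Foxf1* was at 111 and *Tbx3* at 108 CPM, their highest values. The summed fibroblast markers were also lower in every *K-Setd2KO* tumor, and their part in these genes was not tested. *Cdkn2a*, a well-known target of CBX7 and EZH2 named after its values were seen, stood at 2.35 to 3.57 CPM in *K-Ctrl* against 2.91 to 14.0 CPM in *K-Setd2KO* (1.44, edgeR adjusted p = 0.0647).

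**Figure D5:**
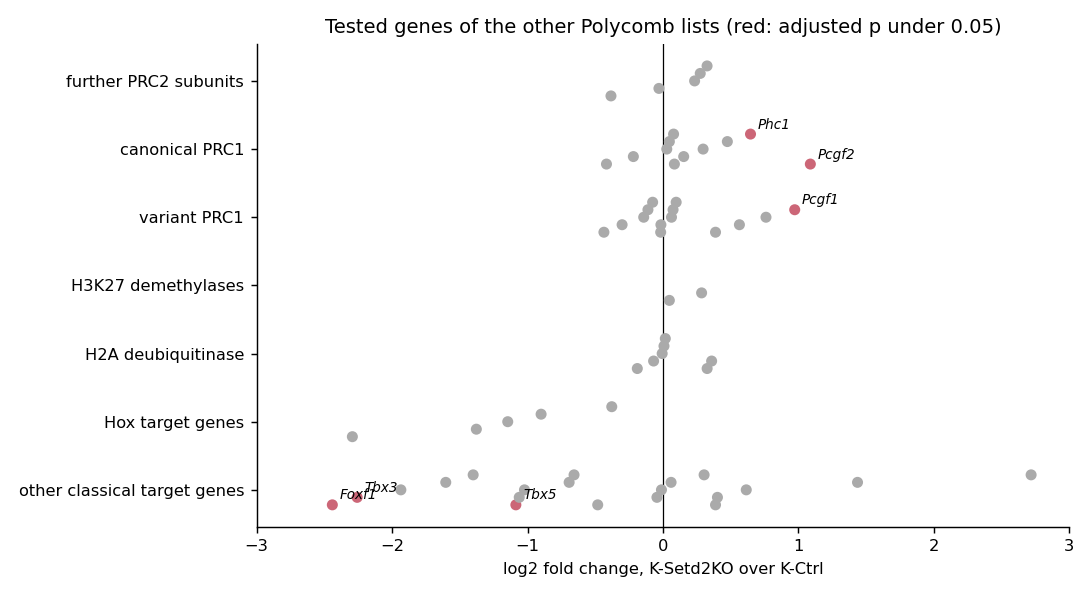
Log2 fold change, *K-Setd2KO* over *K-Ctrl*, of the 64 tested genes in 7 other Polycomb lists, 1 point a gene, spread vertically for view. The 6 genes with an adjusted p under 0.05 are red and named, with the PRC1 genes *Pcgf2*, *Phc1* and *Pcgf1* to the right and *Foxf1*, *Tbx3* and *Tbx5* to the left.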

How the data were processed

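RNA was sequenced as paired-end reads from TruSeq Stranded mRNA libraries of 8 tumors. The extraction text of the labels speaks of cell lines and the design text of frozen tumors, and the samples are called tumors here. The authors deposited raw counts per gene, whole numbers with no normalization. The submitters' processing notes name STAR 2.5.2b, featureCounts 1.5.0-p1 and GRCm38.p4, and the annotation release and strand setting are not given in the sources used here. Of the table's identifiers, 99.26% matched GENCODE M21. Counts were fitted in R 4.3.3 with edgeR 4.0.16 (filterByExpr, TMM, robust quasi-likelihood fit, genotype alone), with adjustment over all 14929 genes tested and a threshold of 0.05. The biological coefficient of variation was 0.337. The standard error is the absolute log2 fold change over the square root of F. CPM used TMM-scaled totals, and correlations used log2 CPM with a prior count of 2. DESeq2 1.42.0, limma voom 3.58.1, other scalings and filters, a replicate block, sex, exon length and chromosome offsets and the omission of each tumor were alternatives. The fit was tested on simulated data. All members were named, with *Setd2*, the called genes of each further Polycomb list (the 2 with the smallest p where none was called, and at most 5) and the 5 genes most like *Ezh1* and *Ezh2*. The members and lists were chosen with earlier results of these data known. Promoter sequences are from RefSeq (GRCm38.p6), in which all 10 members matched. Total counts ranged from 5806599 to 21290402. The result of 1 further gene and 1 allele of the mouse model are not reported here.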

Additional observations from a re-analysis of the deposited data

Results flagged for a closer look

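In 2 of the 50 groups of 4 tumors examined, 1 tumor stood far from the other 3 (gap over range above Dixon's 95% critical value), where chance gives about 2.5 (1 in 20). *Phf19* in *K-Ctrl* replicate 4 was at 3.66 CPM, with the others at 3.19 to 3.20 CPM. *Lcor* in *K-Setd2KO* replicate 2 was at 11.2 CPM, with the others at 16.1 to 16.3 CPM.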

How the results depend on the processing

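The count of PRC2 members called was 1 and fell to 0 without the filter on low counts, with at least 10 counts in every tumor (which removed *Phf19*), with limma voom, with the replicate block, with the exon length trend and with the chromosome medians as offsets. It was 2 with sex as a term, and 0 to 1 with 1 tumor left out. *Phf1* kept its direction in all of these, with log2 fold changes of 0.58 without the filter (adjusted p = 0.0552), 0.54 with 10 counts (0.0523), 0.55 with limma voom (0.0556), 0.56 with the replicate block (0.0774), 0.54 with exon length (0.0511) and 0.53 with chromosome medians (0.0550), and 0.44 to 0.67 with 1 tumor left out. *Cbx7* was 1.24 with sex as a term, and 0.38 to 1.11 with 1 tumor left out. The other Polycomb genes called were 6 (3 higher and 3 lower), but 3 without the filter (1 and 2) and 13 with DESeq2 (5 and 8). They were 3 with limma voom (3 and 0), 3 with sex (3 and 0) and 3 with the replicate block (0 and 3). With that block *Hoxb4* was among the genes gained, and *Pcgf2*, *Phc1*, *Pcgf1*, *Foxf1* and *Tbx3* were among those lost. With 1 tumor left out the count was 0 to 7. It was 0 without *K-Ctrl* replicate 1 or *K-Setd2KO* replicate 3, and 1 without *K-Ctrl* replicate 3. It was 2 without *K-Ctrl* replicate 2 or *K-Setd2KO* replicate 4, and 3 without *K-Setd2KO* replicate 1. Over all genes the calls were 1897, and 1341 with the replicate block. Tumors of the same number correlated at -0.07 to 0.19 in their deviations, 1 of 4 pairs above 0.1, and 2 of 8 tumors were most like their own number, so the numbers were not taken as pairs.

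Small log2 fold changes changed sign. *Ezh1* was 0.043 with sex and -0.19 to 0.015 with 1 tumor left out. *Ezh2* was -0.062 with chromosome medians. *Jarid2* was 0.020 with sex, 0.073 with exon length, 0.037 with chromosome medians and -0.094 to 0.10 with 1 tumor left out. *Mtf2* was -0.0046 with 10 counts, -0.00026 with the replicate block and -0.16 to 0.11 with 1 tumor left out. *Kdm6a* was -0.0076 with sex, and *Kdm6b* -0.11 to 0.20 with 1 tumor left out. Correlations with the proliferation score that changed sign were those of *Ezh1* at 0.19 and *Mtf2* at 0.043 with replication genes alone and of *Jarid2* at -0.024 with mitosis genes alone. With 1 tumor left out they ranged from -0.48 to 0.36 for *Ezh1*, -0.76 to 0.60 for *Ezh2*, -0.51 to 0.23 for *Jarid2*, -0.54 to 0.16 for *Mtf2* and -0.53 to 0.10 for *Rbbp4*. The r of *Phf1* ranged from -0.95 to -0.88, and with DESeq2 size factors its adjusted p was 0.0471. The cause of these changes was not tested. Among the members *Phf19* had the fewest counts, 9 to 69 a tumor.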
